A study of Mus musculus with 5 samples.

Results

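Cytosolic nucleic acid sensing was examined through 10 genes, chosen by name with earlier results of these data known. Ifih1, Dhx58, Zbp1 and Eif2ak2 are RNA sensors. Adar, Samhd1 and Trex1 are enzymes that limit the cell's own nucleic acid ligands, and Mavs, Tbk1 and Irf3 are relay genes. All 10 were matched by mouse symbol to the 55573 genes of the count tables, and 9 of them had counts. Bulk RNA was sequenced from the right hemisphere of C57BL/6 female mice that carried a GL261 tumor, a mouse glioma line transduced with luciferase and mKate2 and inoculated into the right caudate nucleus-putamen at 7 to 8 weeks of age. Libraries from 3 mice treated with vehicle (inVivoPure dilution buffer) were compared with libraries from 2 mice treated with ultrasound-mediated blood-brain barrier opening (UMBO), in which low-intensity pulsed ultrasound is applied while injected microbubbles circulate. Treatment sessions were on days 21 and 24, and tissue was taken 24 h after the last session. The study describes more mice for this experiment than the 5 libraries analysed here, and whether vehicle mice received microbubbles is not given in the sources used here. GL261 is a single transplanted line with a high mutation load, and the hemisphere mixes tumor, brain and immune cells.

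Cells carry proteins that recognize RNA or DNA where it should not be. Long double-stranded RNA is bound by MDA5, the product of Ifih1, with help from LGP2, the product of Dhx58, and the signal passes through the mitochondrial adaptor MAVS and the kinase TBK1 to the transcription factor IRF3, which switches on type I interferon. Interferon in turn raises many of the sensors, so the sensor genes serve both as detectors and as part of the response. In the brain these genes are known for antiviral defense and, when the limiting enzymes are lost, for interferon-driven inflammation of the white matter.

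Because interferon acts on its target genes through short sequences near their starts, the promoters are shown first. RefSeq windows on GRCm38.p6, from 250 bases before to 50 after an annotated start, were found for 8 of the 10 genes (11 windows). Zbp1 and Dhx58 had no window. The interferon-stimulated response element, searched as GAAANNGAAA on both strands, was present in the windows of Ifih1 and Eif2ak2, against 3.99% of all 27025 genes with a window. The gamma-activated sequence, searched as TTCNNNGAA, which reads alike on both strands, was present in windows of Eif2ak2, Samhd1 and Adar, against 9.55% of those genes. Capitals mark the matched letters in the stretches below, each written 5′ to 3′ on the strand of its gene.
Ifih1, response element 32 bases after the start (chr2:62646206-62646235, reverse strand): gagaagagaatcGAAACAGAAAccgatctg
Eif2ak2, response element 18 bases after the start (chr17:78882535-78882564, reverse strand): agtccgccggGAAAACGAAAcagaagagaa
Eif2ak2, gamma-activated sequence (chr17:78882717-78882776, reverse strand): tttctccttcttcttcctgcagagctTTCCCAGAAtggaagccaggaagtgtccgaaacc
Samhd1, gamma-activated sequence (chr2:157135287-157135346, reverse strand): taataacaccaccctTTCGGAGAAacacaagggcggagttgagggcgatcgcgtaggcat
Adar, gamma-activated sequence 22 bases after the most downstream of its 3 starts (chr3:89730729-89730758, forward strand): ggggaagccttTTCAAGGAAacgaaagtga
Neither motif was found in the windows of Mavs, Tbk1, Irf3 or Trex1. A match describes letters and not binding, and its absence says only that these letters are not in the window.

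The libraries held between 59736771 and 86164159 counts, so counting error is small for the 9 genes, the rarest of which, Dhx58, had at least 278 counts in a library. Values are given as CPM, a gene's counts relative to the total of its library after scaling by the TMM method of edgeR. UMBO replicate 2 stood apart, at 134 on the first principal component against -68.4 to 17.0 in the other libraries, and it had the lowest share of mitochondrial counts, 3.36% against 5.29% to 6.61%. Every pair of libraries differed by far more than counting noise, which gives a chi-square per gene near 1, where the smallest observed was 52.2. Neuron, astrocyte and oligodendrocyte markers were all detected in every library. The groups were compared over 23592 genes by the quasi-likelihood method of edgeR, in which 0 genes passed an adjusted p of 0.05 and 1738 (7.37%) had an unadjusted p below that value. The DESeq2 Wald test called 40 genes.

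The sensors of double-stranded RNA were higher on average with UMBO, but their groups overlapped. Ifih1 (chromosome 2 of GRCm38, 62595798 to 62646255, reverse strand) was at 10.2, 16.8 and 11.4 CPM in vehicle replicates 1 to 3 and at 14.6 and 29.2 CPM in UMBO replicates 1 and 2. UMBO replicate 1 lay inside the vehicle range, below vehicle replicate 2. The group values were 12.8 ± 3.52 (SD, n = 3) and 21.9 ± 10.3 CPM (SD, n = 2), and the fitted log2 fold change was 0.77 (standard error 0.366). In bulk tissue a change in the number of cells that express a gene and a change in its RNA per cell cannot be told apart.

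Dhx58 (chromosome 11, 100694884 to 100704271, reverse strand), whose product LGP2 lacks the signaling domains of MDA5 and tunes it, was at 3.72, 10.5 and 4.36 CPM with vehicle and at 8.56 and 26.2 CPM with UMBO. Vehicle replicate 2 again lay above UMBO replicate 1. Its log2 fold change was 1.49 (standard error 0.624), from means of 6.18 ± 3.73 (SD, n = 3) and 17.4 ± 12.5 CPM (SD, n = 2).

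Zbp1 (chromosome 2, 173206612 to 173218923, reverse strand), a sensor of Z-form nucleic acid that can start necroptosis, varied most among the 9 genes. It was at 4.91, 29.0 and 6.22 CPM with vehicle and at 13.7 and 73.5 CPM with UMBO. The vehicle libraries alone spanned 5.92-fold, and UMBO replicate 1 lay at 1.02 times the vehicle mean. The log2 fold change of 1.70 (standard error 0.971) was the highest of the 9 and also had the largest standard error.

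Eif2ak2 (chromosome 17, 78852564 to 78882573, reverse strand) encodes PKR, the kinase that halts translation on binding double-stranded RNA. It was at 15.2, 27.7 and 18.4 CPM with vehicle and at 24.9 and 66.4 CPM with UMBO. The groups overlapped through vehicle replicate 2. With a log2 fold change of 1.16 (standard error 0.455) it was the only 1 of the 9 genes with an edgeR unadjusted p under 0.05, and its adjusted p was 0.497.

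Samhd1 (chromosome 2, 157097533 to 157135265, reverse strand), whose product degrades deoxynucleotides and so limits reverse transcription, followed the sensors. It was at 31.9, 71.2 and 43.2 CPM with vehicle and at 49.1 and 128 CPM with UMBO. UMBO replicate 1 was at 1.01 times the vehicle mean, and UMBO replicate 2 at 2.63 times. For Samhd1 the log2 fold change was 0.86 (standard error 0.491).

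Ifih1, Dhx58, Zbp1, Eif2ak2 and Samhd1 placed the 5 libraries in the same order. From lowest to highest this was vehicle replicate 1, vehicle replicate 3, UMBO replicate 1, vehicle replicate 2 and UMBO replicate 2. Of all genes tested 8.24% had this order, which was singled out after the values were seen. In each of the 5 genes the group means differed by less than the SD of the 2 UMBO libraries, as the plot of the genes by library shows.

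**Figure D1:**
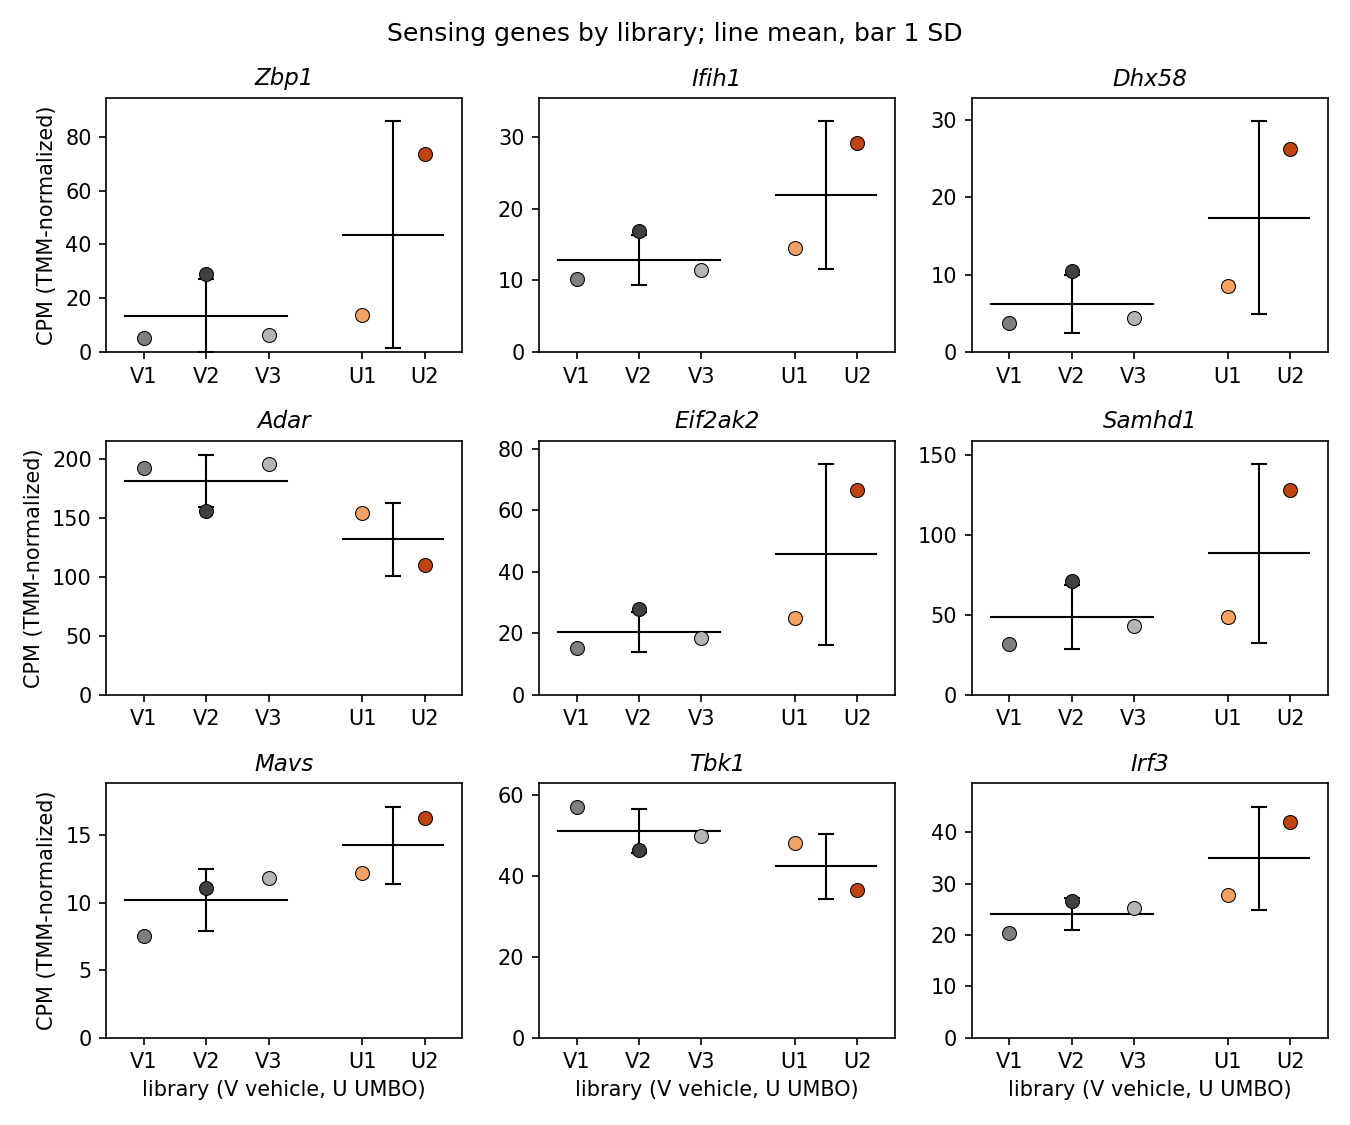
CPM (TMM-normalized) of the 9 counted genes in vehicle replicates 1 to 3 (V1 to V3, gray) and UMBO replicates 1 and 2 (U1 and U2, orange), with each group's mean as a line and 1 SD as a bar. V2 lies above U1 for Zbp1, Ifih1, Dhx58, Eif2ak2 and Samhd1, and the groups are apart for Adar, Mavs and Irf3 only.

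Adar encodes ADAR1, which edits adenosine to inosine in the cell's own double-stranded RNA and so keeps MDA5, PKR and ZBP1 from reacting to it. Adar (chromosome 3, 89715022 to 89753446, forward strand) went the other way from the sensors, at 192, 156 and 196 CPM with vehicle and at 154 and 110 CPM with UMBO. Each UMBO library lay below all 3 vehicle libraries, though UMBO replicate 1 was only just below vehicle replicate 2. The means were 181 ± 21.9 (SD, n = 3) and 132 ± 30.9 CPM (SD, n = 2), with a log2 fold change of -0.46 (standard error 0.237) and an edgeR adjusted p of 0.497. Gene counts add up the interferon-inducible p150 form and the constitutive p110 form, so the forms were not measured separately. Exons of Chrnb2 on the opposite strand cover 16.8% of the exonic bases of Adar. For Dhx58, Eif2ak2 and Irf3 opposite-strand exons cover 4.31%, 4.32% and 2.56%, and for Ifih1, Zbp1, Samhd1, Mavs and Tbk1 no exonic base is shared.

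Trex1 (chromosome 9, 109057933 to 109059734, reverse strand), the exonuclease that clears DNA from the cytosol, is listed at 0 in all 5 libraries. In GENCODE M21 all 1147 of its exonic bases also lie in exons of Atrip on the same strand. Atrip had 1387, 1045 and 1660 counts with vehicle and 1468 and 813 with UMBO. Of the 141 coding genes whose exons lie wholly within those of another gene on the same strand, 141 had no count in any library, against 12.1% of coding genes with no shared exonic base. The 0 of Trex1 therefore holds no information on its expression, and no limit from a count of 0 applies. Where the sharing was wholly with the opposite strand, 7 of 33 coding genes (21.2%) had no count.

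The relay genes differed less between libraries than the sensors. Mavs (chromosome 2, 131234063 to 131248025, forward strand), the adaptor on the outer mitochondrial membrane, was at 7.56, 11.1 and 11.8 CPM with vehicle and at 12.2 and 16.3 CPM with UMBO. The UMBO libraries were both above the vehicle range, but UMBO replicate 1 by little. For Mavs the log2 fold change was 0.49 (standard error 0.275), from means of 10.2 ± 2.29 (SD, n = 3) and 14.3 ± 2.87 CPM (SD, n = 2).

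Irf3 (chromosome 7, 44997648 to 45002848, forward strand), the transcription factor at the end of the pathway, which is activated by phosphorylation and not chiefly through its RNA level, was at 20.5, 26.6 and 25.2 CPM with vehicle. With UMBO it was at 27.8 and 42.1 CPM, above every vehicle library. Its log2 fold change was 0.54 (standard error 0.238), from means of 24.1 ± 3.21 (SD, n = 3) and 34.9 ± 10.1 CPM (SD, n = 2).

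Tbk1 (chromosome 10, 121546455 to 121586787, reverse strand), the kinase that phosphorylates IRF3, had overlapping groups, at 57.0, 46.3 and 49.8 CPM with vehicle and 48.0 and 36.6 CPM with UMBO. Its libraries stood in the exact reverse of the order shared by Samhd1 and the 4 sensor genes, an order held by 8.38% of all genes tested. For Tbk1 the log2 fold change was -0.27 (standard error 0.196). By edgeR the adjusted p of Tbk1 was 0.515.

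Across the 9 genes 0 passed an adjusted p of 0.05 by edgeR, as did 0% of all genes, and 0 had one in the DESeq2 Wald test. At an unadjusted p under 0.05, edgeR called 1 of the 9 genes higher and 0 lower, against 5.3% higher and 2.06% lower among all genes tested, and DESeq2 called 3, against 6.77% of all genes in either direction. The groups were apart for 3 of the 9 genes. Mavs and Irf3 were higher in both UMBO mice, as were 11.5% of all genes, and Adar was lower in both, as were 11.4%. The log2 fold change was above 0 for 7 of the 9 genes, where 50.9% of all genes were above 0. Its median was 0.77 over the 9 genes and 0.01 over all genes tested. The 9 genes were chosen with earlier results of these data known, so these shares and medians do not test the list.

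The size of these differences rested on UMBO replicate 2. Without it the median of the 9 genes was 0.19, and Zbp1 and Samhd1 were at 0.03 and 0.01 on the log2 scale, so the remaining UMBO mouse was close to the vehicle mean for both. Dhx58 kept a log2 fold change of 0.47, the highest without that library. Leaving out vehicle replicate 2 moved Zbp1 to 3.01 and placed both UMBO libraries outside the vehicle range for all 9 genes, where 30.1% of all genes were then above and 28% below. Without UMBO replicate 1, Ifih1, Dhx58, Eif2ak2, Samhd1 and Irf3 had edgeR adjusted p values between 0.039 and 0.0499, when 18.3% of all genes passed. That fit compares a single UMBO mouse with 3 vehicle mice and assumes that it varies as they do. Across the 5 fits that each left out 1 library, the sign of the log2 fold change stayed the same for each of the 9 genes.

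**Figure D2:**
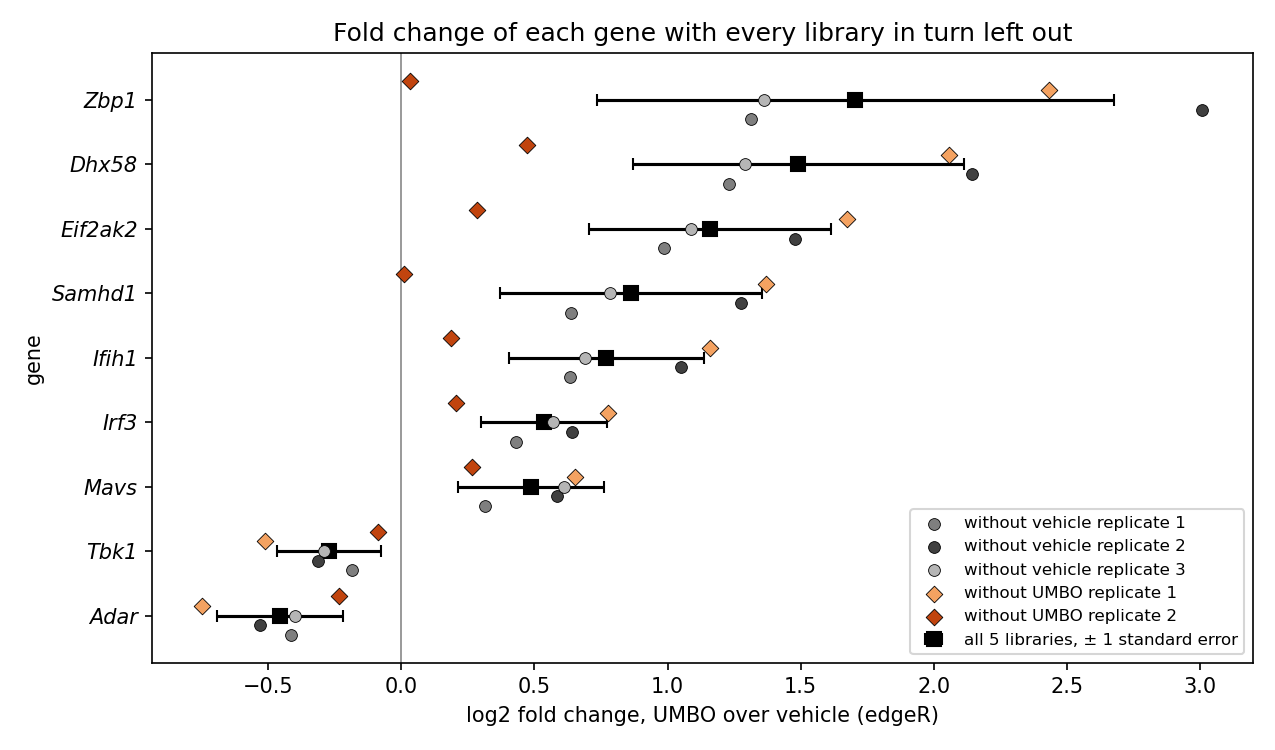
Log2 fold change of UMBO over vehicle for the 9 genes, with all 5 libraries (black square, bar of 1 standard error) and with each library left out (circles for vehicle, diamonds for UMBO). Without UMBO replicate 2 the values lie between -0.23 and 0.47, and without vehicle replicate 2 Zbp1 moves to 3.01.

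Levels can be compared between genes only per length, so CPM was divided by the exonic length in kb. In the vehicle libraries Adar was the most abundant of the 9 genes, at 19.2 to 24.1 CPM per kb, and Tbk1 came next at 11.8 to 14.6, with no overlap between them. Irf3 followed at 5.95 to 7.73 CPM per kb, below every Tbk1 value. From there on neighbors overlapped: in CPM per kb, Samhd1 lay at 3.49 to 7.78, Eif2ak2 at 2.97 to 5.43, Zbp1 at 1.39 to 8.23, Mavs at 2.26 to 3.54, Dhx58 at 1.14 to 3.20 and Ifih1 at 1.25 to 2.06. UMBO replicate 1 kept Adar and Tbk1 in front, at 18.9 and 12.3 CPM per kb. The order was different in UMBO replicate 2, with Zbp1 in front at 20.8 CPM per kb, then Samhd1 at 14.0, Adar at 13.6 and Eif2ak2 at 13.0. The order in the middle depends on the length used, since with the longest transcript in place of all exons the vehicle mean of Samhd1 was 12.4 and that of Irf3 was 11.9 CPM per kb.

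**Figure D3:**
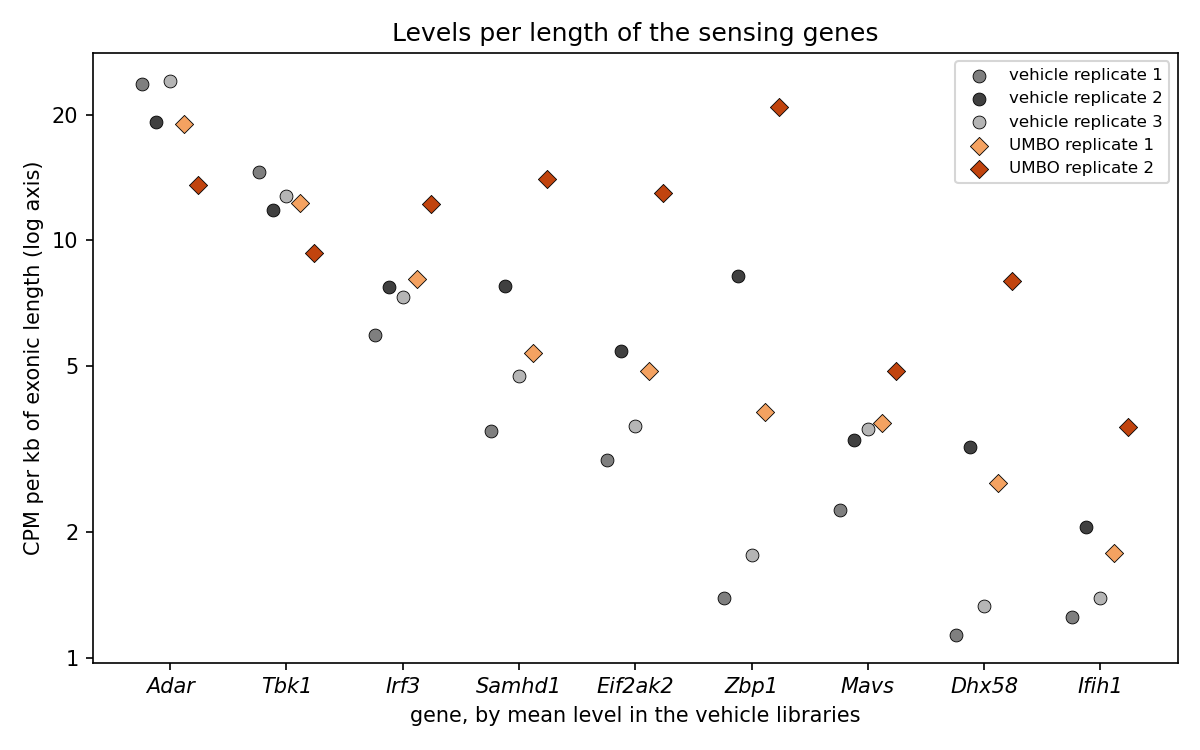
CPM per kb of exonic length (log axis) for the 9 genes in each library, ordered by the vehicle mean. In UMBO replicate 2 (dark orange diamonds) Zbp1, at 20.8, lies above Adar, at 13.6, and in each of the other 4 libraries Adar lies above Zbp1.

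The ratio of Adar to Zbp1, both per kb, does not depend on scaling between libraries. It was 17.0, 2.34 and 13.7 with vehicle and 4.88 and 0.651 with UMBO. The groups overlapped, since vehicle replicate 2 had a lower ratio than UMBO replicate 1. The ratio of Dhx58 to Ifih1, both per kb, was 0.906, 1.55 and 0.954 with vehicle and 1.47 and 2.24 with UMBO, with the libraries in the same order as for the sensors themselves.

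The genes around these 10 were taken from lists set up by known role, with earlier results of these data known. Among 15 other genes of RNA sensing 13 had a log2 fold change above 0, against 50.9% of all genes tested, with a median of 1.25. An edgeR unadjusted p under 0.05 was held by 3 of the 15, all higher, against 5.3% of all genes. These 3 were Oas2, which makes the activator of RNase L, at 1.99, 6.93 and 2.82 CPM with vehicle and 7.12 and 18.1 CPM with UMBO, Trim25, a ubiquitin ligase that acts on RIG-I, with a log2 fold change of 1.25 (standard error 0.482), and Zc3hav1, which binds CpG-rich viral RNA, with one of 1.15 (standard error 0.463). Oas2 had its UMBO libraries above every vehicle library, by little for UMBO replicate 1. RIG-I (Ddx58 in the annotation), the sensor of short RNA with a 5′ triphosphate, was at 11.4, 23.1 and 15.8 CPM with vehicle and 21.9 and 43.8 CPM with UMBO.

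Among 6 genes of DNA sensing 5 were above 0, with a median log2 fold change of 1.19. Cgas, the enzyme that turns DNA binding into a second messenger, was at 2.46, 3.58 and 2.08 CPM with vehicle and 3.38 and 10.6 CPM with UMBO, and was the only 1 of the 6 with an unadjusted p under 0.05. Tmem173, the gene of the receptor STING, was at 5.46, 13.4 and 6.48 CPM against 11.4 and 31.4 CPM. In both genes vehicle replicate 2 lay above UMBO replicate 1. Among 8 other genes of nucleic acid metabolism the median was 0.42, and Dnase2a, the lysosomal nuclease, had the smallest p, at 5.24, 11.6 and 5.26 CPM with vehicle and 10.4 and 31.3 CPM with UMBO. Rnaseh2c, a subunit of the enzyme that cuts RNA in RNA-DNA hybrids, was next, with a log2 fold change of 0.62 (standard error 0.306). Opposite-strand exons cover 30% of the exonic bases of Dnase2a and 24.8% of those of Rnaseh2c.

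The 5 genes that act below Zbp1 in cell death all had a log2 fold change above 0. Their median log2 fold change was 1.24, and 2 of them had an edgeR unadjusted p under 0.05, against 5.3% of all genes on the higher side. Casp8, the caspase that restrains necroptosis, was at 3.76, 6.62 and 4.84 CPM with vehicle and 8.33 and 15.6 CPM with UMBO, and its groups did not overlap. Ripk3, the kinase that ZBP1 engages, was at 0.361, 1.05 and 0.579 CPM with vehicle and 0.924 and 3.37 CPM with UMBO, and its groups overlapped.

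The 11 other adaptors, kinases and interferon regulatory factors had a median log2 fold change of -0.07, with 4 above 0 and 0 at an unadjusted p under 0.05. The 2 with the smallest p were Irf5, an interferon regulatory factor of myeloid cells, with a log2 fold change of 1.34 (standard error 0.55), and Ikbke, the inducible relative of Tbk1, at 2.30, 4.47 and 3.71 CPM with vehicle and 4.40 and 10.6 CPM with UMBO. Irf7, the interferon-inducible relative of Irf3, had the highest log2 fold change of the 11, at 7.73, 35.3 and 11.1 CPM with vehicle and 24.7 and 90.8 CPM with UMBO. In each of these 3 genes vehicle replicate 2 lay above UMBO replicate 1, and opposite-strand exons cover 14.1% of the exonic bases of Irf5.

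The 8 interferon genes of the list had few counts. Ifna4, Ifnk, Ifnl2 and Ifnl3 had 0 counts in all 5 libraries, which allows at most 0.0351 to 0.0458 CPM in a library (3 counts, counting error only). This limit leaves aside reads that match more than 1 gene, and how these were counted is not given in the sources used here. Ifnb1 had 2, 2 and 0 counts with vehicle and 1 and 3 with UMBO, and Ifna2 and Ifne had at most 3 counts in a library. Ifng, with 6, 30 and 23 counts against 16 and 42, was the only 1 of the 8 interferon genes with enough counts to be tested, and its log2 fold change was 0.63 (standard error 0.812). Exons of another gene on the same strand cover 25.9% of the exonic bases of Ifng. For the other interferon genes a difference between the groups was not detectable at this depth.

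Among 10 interferon receptors and transducers the median log2 fold change was 0.63, and Ifngr1 had the smallest p, with a log2 fold change of 0.65 (standard error 0.258). Ifnar2 was next at 0.60 (standard error 0.273). All 15 genes used as a readout of interferon were above 0, with a median of 1.43. Both UMBO libraries lay outside the vehicle range for 0 of the 15, against 11.5% of all genes above it and 11.4% below. Mx1 and Mx2, which encode antiviral GTPases, were the 2 with an unadjusted p under 0.05. Over the 78 genes of these lists 71 were tested, of which 10 had an edgeR unadjusted p under 0.05, all higher. Of all genes tested 5.3% were higher and 2.06% lower at that p. An edgeR adjusted p under 0.05 was reached by 0 of the 71. The count of 10 was 0 without vehicle replicate 1 (1.28% of all genes in either direction) or without vehicle replicate 3 (1.88%). It was 41 without vehicle replicate 2 (11.6% of all genes).

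**Figure D4:**
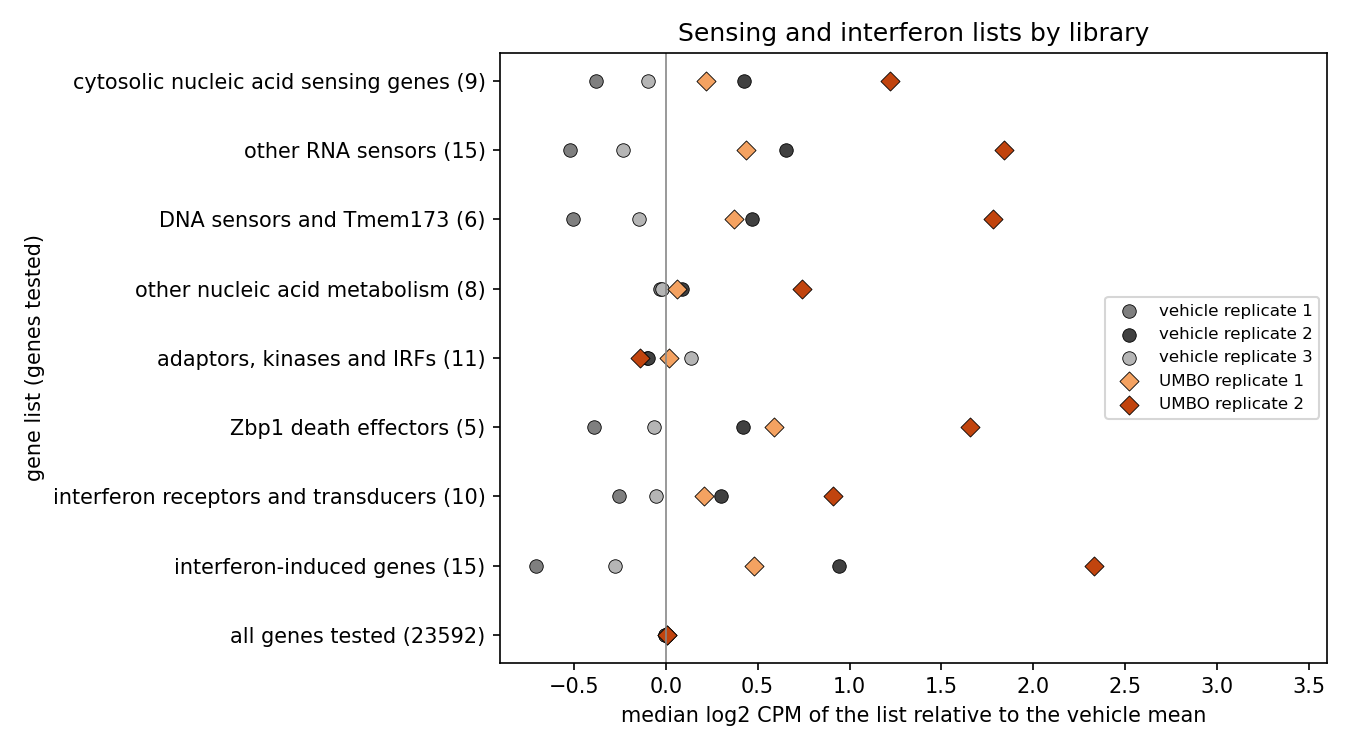
Median log2 CPM of each gene list relative to its vehicle mean, by library, with the number of genes tested in parentheses. The cytosolic nucleic acid sensing genes lie at 0.22 in UMBO replicate 1, below 0.43 in vehicle replicate 2, and at 1.22 in UMBO replicate 2, while adaptors, kinases and IRFs stay between -0.14 and 0.14.

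Markers of several cell types differed between the libraries as well. The summed level of 10 monocyte and macrophage markers was 92.4, 383 and 130 CPM with vehicle and 379 and 1442 CPM with UMBO, the library order of the sensors. Vim made up most of each sum, at 68.3, 250 and 83.5 CPM with vehicle and 278 and 943 CPM with UMBO. The sums therefore weigh Vim most. All 10 markers of the list had a log2 fold change above 0, against 50.9% of all genes. Their median was 2.25, against 0.01 over all genes tested. The 10 proliferation markers summed to 34.9 to 110 CPM with vehicle and to 117 and 477 CPM with UMBO. All 10 were higher at an edgeR unadjusted p under 0.05, against 5.3% of all genes. For 7 of them both UMBO mice exceeded all 3 vehicle mice, against 11.5% of all genes. The 8 microglia markers summed to 324 to 456 CPM and to 610 and 733 CPM. For 6 of the 8 both UMBO mice exceeded all 3 vehicle mice, against 11.5% of all genes. For 12 T and NK cell markers the sums were 21.1 to 38.3 CPM with vehicle and 15.3 and 62.4 CPM with UMBO. Cd4, the only 1 of the 12 with a log2 fold change below 0, was a large part of these sums. It was at 14.6, 14.0 and 7.31 CPM with vehicle and 4.56 and 8.31 CPM with UMBO. The 10 neuron markers summed to 7531 to 11334 CPM with vehicle and to 7798 and 3520 CPM with UMBO. Only UMBO replicate 2 lay below the vehicle range, and UMBO replicate 1 lay inside it. The log2 fold change was above 0 for 1 of the 10, against 50.9% of all genes. An edgeR unadjusted p under 0.05 was held by 0 of the 10, against 7.37% of all genes. For 4 of the 10 both UMBO mice were below every vehicle mouse, against 11.4% of all genes. The 8 endothelial markers summed to 195 to 274 CPM with vehicle and to 338 and 361 CPM with UMBO. Of these, 4 were higher at an edgeR unadjusted p under 0.05, against 5.3% of all genes. The 8 astrocyte markers summed to 4160 to 5421 CPM and to 6096 and 3948 CPM, and 5 of them had a log2 fold change above 0 and 3 below. Gfap, which marks reactive astrocytes, was at 214, 515 and 388 CPM with vehicle and 1396 and 1636 CPM with UMBO. Slc1a2 was at 2739, 1798 and 2887 CPM with vehicle and 2491 and 765 CPM with UMBO. The 8 oligodendrocyte markers summed to 5959 to 6137 CPM with vehicle and to 6396 and 5638 CPM with UMBO. At an edgeR unadjusted p under 0.05, 5 monocyte and macrophage, 5 microglia and 1 each of the T and NK cell, astrocyte and oligodendrocyte markers were higher. Both UMBO mice exceeded every vehicle mouse for 4 endothelial, 3 monocyte and macrophage, 3 astrocyte, 3 oligodendrocyte and 1 T and NK cell markers. All markers of these lists were detected in every library, and their part in the differences of the sensing genes was not tested.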

How the data were processed

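Libraries from right hemispheres of 3 vehicle-treated and 2 UMBO-treated mice were available and analysed, and the groups were taken from the sample titles. The authors mapped reads with STAR 2.7.2a to GRCm38 and deposited raw counts per gene, without normalization. The annotation release and the strand setting are not given in the sources used here. Symbols, positions and exonic lengths were taken from GENCODE M21 (GRCm38), which matched all but 93 of the 55573 gene identifiers. Total counts lay between 59736771 and 86164159.

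Counts were scaled by TMM, filtered with filterByExpr (23592 genes kept) and fitted in edgeR 4.0.16 under R 4.3.3, whose quasi-likelihood p-values were adjusted over all genes by the Benjamini-Hochberg method. Log2 CPM used a prior count of 2. Alternatives were other scalings and filters, the DESeq2 1.42.0 Wald test, the replicate number as a block and each library left out. The members and lists were chosen with earlier results of these data known. Every member was named, and from each list the 2 genes of smallest p, those at an unadjusted p under 0.05 and those not detected. Ddx58, Irf7, Gfap, Slc1a2, Vim, Cd4, Atrip, Chrnb2 and the ratios between members were added outside this rule, after their values were seen. Promoter windows are those of RefSeq on GRCm38.p6.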

Additional observations from a re-analysis of the deposited data

How the results depend on the processing

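The sign of the log2 fold change of the 9 genes was the same under every alternative run. With no filter on low counts 5 of them had an unadjusted p under 0.05 in place of 1 (10.1% of all genes in place of 7.37%), and 41 genes of the other lists in place of 10. The DESeq2 Wald test gave 3 and 29 (6.77% of all genes), and called 40 genes in all, none of them among the 9. With the replicate number as a block, edgeR gave an adjusted p under 0.05 for 4 of the 9 genes (Zbp1, Dhx58, Eif2ak2 and Samhd1), in which 9.91% of all genes, 2337, passed, and an unadjusted p under 0.05 for 7 of the 9, 26% of all genes and 49 genes of the other lists. Only 2 numbers are shared, with correlations of deviations from the group mean of 0.453 and 0.76. The deviations of the 2 UMBO libraries mirror each other, so these correlations are not separate checks of pairing. Nothing in the sources says that a number marks a shared litter or day, so the block does not establish pairs. Vehicle replicate 3 is alone in its block, so the UMBO difference in the block fit rests on the libraries that share a number. That fit leaves little from which to estimate the spread. Why these fits differed was not tested. With 1 library left out in turn, the members called ranged from 0 to 5 (without UMBO replicate 1), those at an unadjusted p under 0.05 from 0 to 8 (all genes 1.28% to 41%), those with groups apart from 3 to 9 (without UMBO replicate 1, where 42.2% of all genes were above and 41.6% below, and without vehicle replicate 2), their median log2 fold change from 0.19 (without UMBO replicate 2) to 1.16, the genes of the other lists at an unadjusted p under 0.05 from 0 to 55, and all genes called from 0 to 4543. When library size alone set the scale, the median over all genes went from 0.01 to 0.13 and that of the 9 genes from 0.77 to 0.90. Depth limits the interferon genes, at 3 or fewer counts apart from Ifng, and not the 9 genes.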
